A study of Mus musculus with 35 samples.

Results

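The collagen genes of interscapular brown adipose tissue (iBAT) were taken as the protein-coding genes whose mouse symbol is Col, a number, the letter a and a number. This rule found 44 genes among the 55421 rows of the count table, of which 21899 are protein-coding. They comprise 11 fibrillar collagens, 8 collagens of the basement membrane zone (types IV, XV and XVIII) and 25 others. Col4a3bp, which encodes a lipid transfer protein, shares the start of the symbol and was left out. iBAT came from 35 male C57BL/6J mice aged 9 to 10 weeks, 1 library per mouse, with 5 mice kept at room temperature (24 °C) and 5 mice each after 6 hours or 1, 2, 3, 4 or 5 days at 6 °C. The mice carried no transgene by the labels, and 1 pad per mouse was used. Cold-exposed mice sat singly in incubators, in static cages without nesting material, while controls stayed in the colony, so temperature and this housing cannot be told apart.

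Collagens are secreted as triple helices of α chains. Fibrillar collagens such as type I and type III assemble into the cross-linked fibrils that give connective tissue its tensile strength, and in adipose tissue they are made largely by stromal fibroblast-like cells. Type IV collagen instead forms the sheet-like network of the basement membrane that surrounds each adipocyte and underlies the endothelium, and its most widespread form is built from the α1 and α2 chains. Types XV and XVIII lie where basement membranes meet the interstitial matrix, type VI forms beaded filaments near cells, and types XIII, XXIII and XXV span the plasma membrane.

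The genes for the 2 main chains of type IV collagen, Col4a1 and Col4a2, lie head to head on chromosome 8 of GRCm38, Col4a1 on the minus strand (11198423 to 11312826) and Col4a2 on the plus strand (11312805 to 11449287). Their annotated starts overlap by 22 bases in the first exon of each. The RefSeq windows from 250 bases before to 50 bases after each start (GRCm38.p6) are shown because these genes moved together below. The windows share 78 bases, read on opposite strands (chr8:11312777-11312854), and are printed 5′ to 3′ on each gene's own strand. Capitals mark matches on either strand to the TATA box TATAAA, the CCAAT box CCAAT and the GC box GGGCGG. The windows of Col1a2 and Col3a1, fibrillar genes with a different time course, follow for contrast.
Col4a1 (chr8:11312777-11313076, minus strand): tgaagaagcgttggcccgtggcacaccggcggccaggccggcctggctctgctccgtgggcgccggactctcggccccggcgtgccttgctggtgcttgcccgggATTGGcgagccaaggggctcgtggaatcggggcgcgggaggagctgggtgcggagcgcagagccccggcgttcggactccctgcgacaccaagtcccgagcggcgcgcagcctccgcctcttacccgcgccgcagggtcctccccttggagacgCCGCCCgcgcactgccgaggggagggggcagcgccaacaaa
Col4a2 (chr8:11312555-11312854, plus strand): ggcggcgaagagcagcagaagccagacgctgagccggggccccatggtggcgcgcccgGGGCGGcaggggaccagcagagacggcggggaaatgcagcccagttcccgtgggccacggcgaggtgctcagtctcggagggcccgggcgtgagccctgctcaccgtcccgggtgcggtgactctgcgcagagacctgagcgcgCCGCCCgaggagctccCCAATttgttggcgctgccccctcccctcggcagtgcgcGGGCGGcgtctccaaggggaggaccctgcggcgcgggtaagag
Col1a2 (chr6:4505368-4505667, plus strand): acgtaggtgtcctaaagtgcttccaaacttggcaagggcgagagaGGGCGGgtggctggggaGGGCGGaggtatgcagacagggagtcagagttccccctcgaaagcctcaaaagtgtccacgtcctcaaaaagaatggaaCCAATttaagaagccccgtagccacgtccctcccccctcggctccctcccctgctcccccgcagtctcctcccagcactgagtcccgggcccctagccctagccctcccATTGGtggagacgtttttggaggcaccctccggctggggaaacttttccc
Col3a1 (chr1:45311288-45311587, plus strand): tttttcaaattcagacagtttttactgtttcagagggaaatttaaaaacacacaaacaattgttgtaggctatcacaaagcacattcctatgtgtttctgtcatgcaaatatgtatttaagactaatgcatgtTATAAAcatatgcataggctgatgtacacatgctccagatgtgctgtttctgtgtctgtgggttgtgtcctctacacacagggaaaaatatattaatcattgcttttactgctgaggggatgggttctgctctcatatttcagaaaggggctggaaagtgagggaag
GC made up 74.0% of the Col4a1 window, 73.7% of the Col4a2 window, 61.0% of the Col1a2 window and 37.7% of the Col3a1 window, against a median of 52.7% over all windows of that length. The Col4a1 and Col4a2 windows each held a GC box and a CCAAT box and no TATA box by these letters. The only GC box match of the Col4a1 window begins at base 10 counted from its start, inside the gene. It is the same site as the Col4a2 match at base 8, within the shared bases. The Col3a1 window held a TATA box match, and the Col1a2 window held GC and CCAAT boxes. Among 32851 windows of all genes, 13.62% held the TATA box, 37.41% the CCAAT box and 35.66% the GC box. Of the 44 collagens, 35 had a window (38 windows in all), and the shares were 13.16%, 34.21% and 60.53%. These matches describe letters only.

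Libraries were prepared with a kit that reads the 3′ end of polyadenylated transcripts, so a count stands for a transcript end and does not grow with transcript length. Each library held 3846016 to 6047247 counts, of which mitochondrial genes took 33.6% to 46.2%, and 1 read was worth 0.165 to 0.26 CPM (counts scaled to a fixed library total). Collagens held 193631 counts over all mice, and the 5 most abundant collagen genes made up 74.37% of collagen CPM. Of the 44 collagens, 20 had enough counts to be tested at all 6 durations, 3 at some of them (Col4a5, Col6a6 and Col16a1) and Col25a1 only in the test over the whole time course. The other 20 held 0 to 134 counts over all 35 mice and were never tested. These are Col2a1, Col11a1, Col11a2 and Col24a1 of the fibrillar class, Col4a3 and Col4a6 of the basement membrane class, and 14 others, of which Col9a2 had no count in any library. The 10 markers of cartilage, tendon and bone summed to at most 2.63 CPM in any mouse, and Ibsp was at 0 in every library. All levels below are TMM-normalized CPM, and all differences are log2 fold changes with their standard errors (SE) from edgeR's quasi-likelihood test. A gene was called at a Benjamini-Hochberg adjusted p below 0.05 over all genes tested. In whole tissue, fewer cells of a type and less RNA per cell cannot be told apart.

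Col4a1 and Col4a2 rose at every duration, most in the first 2 days. Col4a1 stood at 113, 133, 117, 100.0 and 79.5 CPM in the 5 room temperature mice and at 240.1, 294, 277, 289 and 327 CPM after 6 hours. It was at 356, 324, 264, 306 and 306 CPM after 1 day and at 334, 347, 243, 170.3 and 280.1 CPM after 2 days. Every cold-exposed mouse lay above every control, and the level was 232 ± 17.2 CPM after 3 days, 193 ± 4.33 CPM after 4 days and 185 ± 17.8 CPM after 5 days (SD, n = 5), against 108 ± 19.9 CPM in controls. The log2 fold change of Col4a1 was 1.38 (SE 0.12, adjusted p = 1.08e-07) after 6 hours, 1.52 (SE 0.13) after 1 day, 1.34 after 2 days, 1.11 after 3 days, 0.83 after 4 days and 0.77 (SE 0.12, adjusted p = 8.37e-05) after 5 days.

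Col4a2 followed the same order. Its level was 84.2, 90.7, 73.5, 71.4 and 60.8 CPM in the controls, 162, 197, 156, 160.3 and 234 CPM after 6 hours, and 271, 227, 207, 273 and 219.7 CPM after 1 day. No cold-exposed mouse overlapped the controls. The log2 fold change of Col4a2 was 1.24 (SE 0.13) after 6 hours, 1.65 (SE 0.12, adjusted p = 6.29e-08) after 1 day, 1.26 after 2 days, 0.99 after 3 days, 0.83 after 4 days and 0.65 (SE 0.13, adjusted p = 0.00093) after 5 days. All 6 comparisons use the same 5 controls and are not independent. In a comparison of mice after 5 days with mice after 6 hours that leaves the controls out, Col4a1 was lower by a log2 fold change of -0.61 (SE 0.11, adjusted p = 0.000122) and Col4a2 by -0.58 (SE 0.14, adjusted p = 0.00223), with all 5 mice after 5 days below all 5 after 6 hours for both genes.

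The other chains of type IV collagen were low. Col4a4, part of a network found in fewer tissues, was tested at all durations and was not called (log2 fold changes down to -0.72). Col4a5, from the same alternative networks, was tested after 4 and 5 days and was lower after 4 days by a log2 fold change of -1.26 (SE 0.43, adjusted p = 0.029). That call was lost on leaving out any one of room temperature replicates 2, 3 or 5 or 4-day replicates 1, 2 or 4 (log2 fold changes from -1.25 to -0.99, adjusted p from 0.0518 to 0.0808). Col4a3 and Col4a6 held 84 and 4 counts over all mice.

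**Figure D1:**
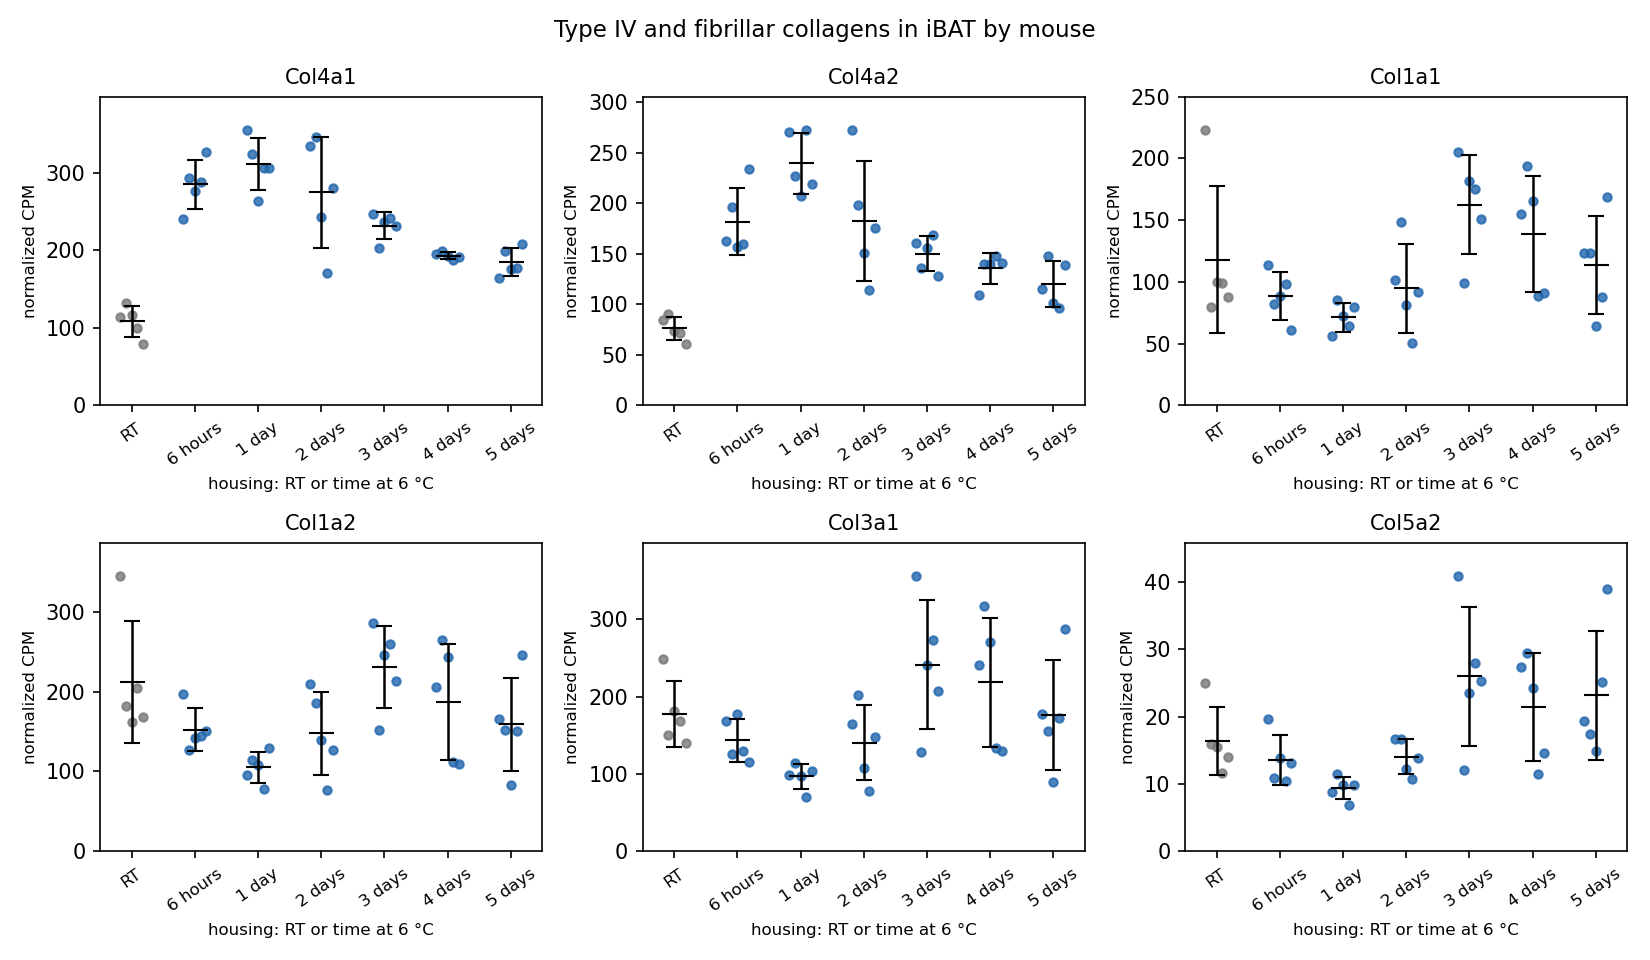
TMM-normalized CPM (y axis, from 0) of 6 collagen genes in every mouse at room temperature (RT, grey) and after each time at 6 °C (blue), with the mean and SD of 5 mice as black bars. For Col4a1 and Col4a2 every cold-exposed mouse lies above every control, while Col1a1, Col1a2, Col3a1 and Col5a2 are lowest on average after 1 day and highest on average after 3 days.

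The main fibrillar collagens did not follow type IV. After 1 day, 5 of the 7 fibrillar genes tested were lower than at room temperature (Col1a1, Col1a2, Col3a1, Col5a1 and Col5a2), where 17.8% of all genes tested were lower, and 1, Col27a1, was higher. Col1a2, the second chain of type I collagen, stood at 345, 181, 162, 204 and 168 CPM in the controls and at 95.6, 114, 109, 77.7 and 129 CPM after 1 day, with no overlap (log2 fold change -1.01, SE 0.19, adjusted p = 0.000503). Col3a1, the single chain of type III collagen, stood at 248, 151, 181, 169 and 139.9 CPM in the controls and at 99.1, 115, 97.5, 70.5 and 104 CPM after 1 day, also without overlap (log2 fold change -0.87, SE 0.15, adjusted p = 0.000282). Col1a1, the main chain of type I collagen, stood at 223, 80.0, 100.2, 98.8 and 87.7 CPM in the controls and at 56.3, 85.2, 72.2, 63.9 and 79.4 CPM after 1 day (log2 fold change -0.72, SE 0.23, adjusted p = 0.0203). Room temperature replicate 1 stood far above the other controls for Col1a1, and 4 of the 5 mice after 1 day lay below all controls. Without room temperature replicate 1 the log2 fold change of Col1a1 was -0.36, and the call was lost without 1-day replicate 1 (-0.64, adjusted p = 0.0588).

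Type V collagen, which nucleates type I fibrils, split between its chains. Col5a2 was lower after 1 day by a log2 fold change of -0.80 (SE 0.20, adjusted p = 0.00481) and Col5a1 by -0.62 (SE 0.23, adjusted p = 0.0442). The Col5a1 call was lost on leaving out any one of room temperature replicates 1, 3 or 4 or 1-day replicates 1, 2, 3 or 4 (log2 fold changes from -0.64 to -0.45, adjusted p from 0.0679 to 0.134). Col5a3 was lower after 6 hours, at 18.4, 12.3, 14.3, 15.4 and 15.4 CPM against 26.7, 22.0, 24.0, 22.1 and 18.9 CPM in the controls (log2 fold change -0.61, SE 0.13, adjusted p = 0.00143), and higher after 3 days (0.50, SE 0.15), 4 days (0.63, SE 0.14) and 5 days (0.82, SE 0.16, adjusted p = 0.000589). The 6-hour mice did not overlap the controls. The call after 3 days was lost without 3-day replicate 3 (0.38, adjusted p = 0.0575). Between 6 hours and 5 days Col5a3 differed by a log2 fold change of 1.43 (SE 0.17, adjusted p = 1.46e-06). After 6 hours Col1a2 was also lower (-0.50, SE 0.18, adjusted p = 0.0305), but that call was lost with all 7 groups in 1 fit (adjusted p = 0.135) and without room temperature replicate 1 (-0.25, adjusted p = 0.111) or any one of 6-hour replicates 2, 3, 4 or 5 (-0.48 to -0.43).

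From 2 days on no fibrillar gene was called lower than in the controls in the main fits. Col1a2 was called lower after 2 days with no filter on low counts (-0.51, adjusted p = 0.00169) and with the replicate block (-0.54, adjusted p = 0.0436). After 5 days Col1a2 was called lower with no filter on low counts (-0.38, adjusted p = 0.0116) and with library size only (-0.62, adjusted p = 0.0482). Col1a1 was at 205, 99.0, 182, 175 and 151 CPM after 3 days, where the fit against controls gave 0.47 (log2, SE 0.25, adjusted p = 0.151), and 0.83 (adjusted p = 0.00145) without room temperature replicate 1. Without the same mouse, Col3a1 (0.60) and Col5a2 (0.87) were also called higher after 3 days, and Col1a1 after 4 days (0.59, adjusted p = 0.0311). Replicate 2 was the lowest 3-day mouse for Col1a1, Col1a2, Col3a1 and Col5a2, and without it Col3a1 (0.62) and Col5a2 (0.86) were likewise called. Col3a1 ranged from 129 to 357 CPM after 3 days and Col1a2 from 152 to 285 CPM. Of the fibrillar class, Col5a1 (0.76, SE 0.22, adjusted p = 0.0147), Col5a3 and Col27a1 were called higher after 3 days. After 4 days 2 mice lay among the lower controls for Col1a1 (88.8 and 91.1 CPM) and the other 3 stood at 155, 194 and 165 CPM. The summed level of 10 macrophage markers was 113.5 and 120.5 CPM in those 2 mice and 419, 462 and 413 CPM in the other 3, and replicate 2 was also the lowest 3-day mouse for these markers (160.5 CPM). The adipose stromal cell markers summed to 325 and 316 CPM in those 2 mice and 407, 401 and 337 CPM in the other 3. Replicate 2 was the lowest 3-day mouse for them too (350.03 CPM). Brown adipocyte markers went the other way, at 24400 and 23239 CPM against 19503, 19467 and 19423 CPM. The part of these cell types in the fibrillar values was not tested.

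The comparison of 3 days with 1 day, chosen after the values above had been seen, does not use the controls. In it 12 of the 20 collagens tested were higher and 3 lower, where 6.97% of all 10538 genes tested were higher and 5.11% lower. All 6 fibrillar genes other than Col27a1 were among those higher. The log2 fold change was 1.21 (SE 0.17, adjusted p = 0.000255) for Col1a1, 1.16 (SE 0.16) for Col1a2, 1.34 (SE 0.20) for Col3a1, 1.39 (SE 0.24) for Col5a1, 1.48 (SE 0.25) for Col5a2 and 0.66 (SE 0.16) for Col5a3. Each mouse after 3 days lay above each mouse after 1 day for Col1a1, Col1a2, Col3a1 and Col5a2. Col6a1, Col6a2, Col6a3, Col14a1, Col15a1 and Col18a1 were also higher, and Col4a1 (-0.40, SE 0.11, adjusted p = 0.0178), Col4a2 (-0.65, SE 0.12) and Col13a1 (-0.89, SE 0.22) were lower. The Col4a1 call was lost without 1-day replicate 1 (-0.36, adjusted p = 0.0552) and with scaling by library size only (-0.34, adjusted p = 0.0943).

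**Figure D2:**
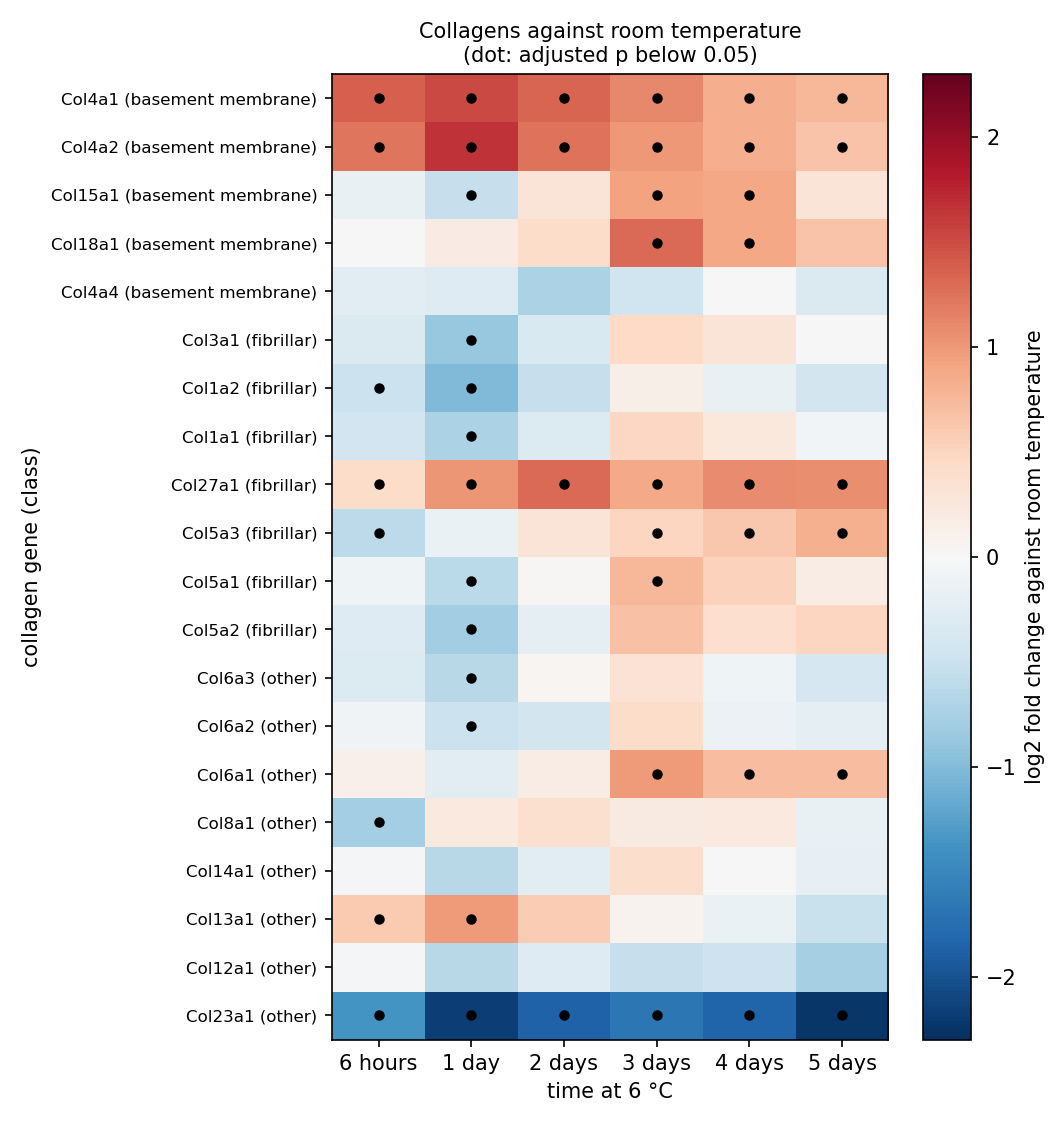
Log2 fold change against room temperature (colour, red higher, blue lower) of the 20 collagens tested at all 6 durations (rows, with their class) after each time at 6 °C (columns), with a black dot where the adjusted p was below 0.05. Col4a1, Col4a2 and Col27a1 carry dots on a red ground at all 6 durations and Col23a1 on a blue ground, while the dots of the main fibrillar genes on blue are mostly in the 1-day column.

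The difference between the type IV and type I time courses was tested within each library as the log2 ratio of Col4a1 to Col1a1 counts. Scaling of the library drops out of this ratio. It was -0.03 ± 0.62 at room temperature, 1.71 ± 0.49 after 6 hours, 2.13 ± 0.33 after 1 day and 1.58 ± 0.21 after 2 days (SD, n = 5). All 5 mice at each of these durations lay above all controls (differences of 1.74, 2.16 and 1.61, exact permutation test, two-sided p = 0.00794 each, the smallest this design allows, and 0.0286 adjusted over 18 tests). After 3, 4 and 5 days the difference was 0.58, 0.58 and 0.80, with adjusted p of 0.175, 0.202 and 0.122 in the same exact permutation test. With any one mouse left out the difference was at least 1.502 after 6 hours, 1.93 after 1 day and 1.37 after 2 days. The number of durations past the threshold was 5 without room temperature replicate 2, and 2 without 6-hour replicates 2 or 5 or any one of the 2-day mice. The ratio of Col4a1 to Col4a2 was not called at any duration (differences from -0.12 to 0.16). Col1a1 to Col1a2 was higher after 3 days by 0.38 and after 4 days by 0.49, with all 5 mice above all controls (exact permutation test, adjusted p = 0.0286 both times). With any one mouse left out these differences were 0.31 to 0.45 and 0.42 to 0.56. Leaving out any one mouse after 3 or 4 days ended the call of that duration, in a test with fewer splits.

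**Figure D3:**
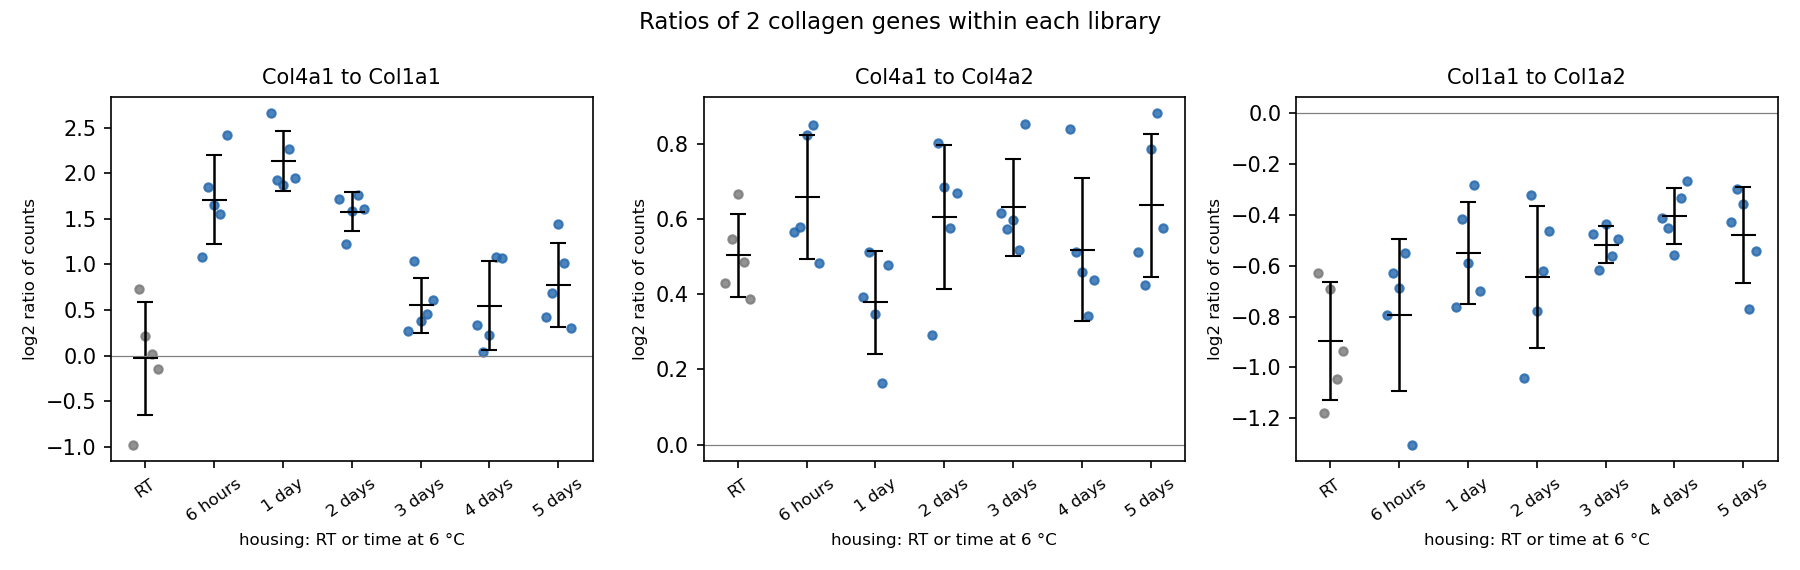
Log2 ratio of the counts of 2 collagen genes (y axis) in every mouse at room temperature (RT, grey) and after each time at 6 °C (blue), with the mean and SD of 5 mice as black bars. The Col4a1 to Col1a1 ratio is above all controls in every mouse after 6 hours, 1 day and 2 days, whereas the Col4a1 to Col4a2 ratio overlaps the controls at every duration.

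Mice of one duration also varied together in groups of collagens. With the mean of each duration removed (35 mice, log2 CPM), Col1a1 varied with Col1a2 (Pearson's r = 0.90, Spearman's rho = 0.89) and with Col3a1 (r = 0.89, rho = 0.88), and Col4a1 with Col4a2 (r = 0.79, rho = 0.77). The permutation p was 1e-05 for each r and each rho, the smallest that 100000 permutations give, and 2e-05 adjusted over 6 relations. Without the 2 mice farthest from the median, r was 0.87, 0.89 and 0.72. Between Col1a1 and Col4a1 the relation did not pass the threshold (r = 0.39, rho = 0.36, permutation p = 0.0616 and 0.0461, adjusted 0.0739 and 0.0553, and r = 0.26 without the 2 farthest mice). Col1a1 varied with Pdgfra, a receptor that marks adipose stromal cells (r = 0.64, rho = 0.62, permutation p = 0.00063 and 0.00089, adjusted 0.000945 and 0.00134, and r = 0.71 without the 2 farthest mice). No relation was detected between Col4a1 and the endothelial gene Pecam1 (r = 0.02, rho = -0.05, permutation p = 0.913 and 0.801, the same after adjustment, and r = -0.10 without the 2 farthest mice). Libraries share their depth and TMM factor across genes. Scaled by library size only, r of Col1a1 with Col4a1 was 0.59 and passed the threshold, as it did without any one of room temperature replicates 1 or 2, 6-hour replicates 1 or 5 or 1-day replicate 1 (r up to 0.49). In the 20 mice after 2 to 5 days alone it was 0.71 and passed.

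Col27a1, a fibrillar chain that forms thin fibrils and is best known from cartilage, was higher at all 6 durations. It stood at 32.7, 20.6, 16.6, 25.6 and 32.4 CPM in the controls, at 90.6, 66.5, 64.2, 36.6 and 61.0 CPM after 2 days, and at 56.9, 51.6, 56.1, 44.9 and 61.7 CPM after 5 days. From 1 day on, no cold-exposed mouse overlapped the controls. The log2 fold change of Col27a1 was 1.02 (SE 0.20) after 1 day, 1.31 (SE 0.22, adjusted p = 0.000308) after 2 days, 0.88 after 3 days, 1.09 after 4 days and 1.07 (SE 0.16, adjusted p = 5.14e-05) after 5 days. The smaller rise after 6 hours (0.42, SE 0.17, adjusted p = 0.0479) was lost on leaving out any one of room temperature replicates 2, 3 or 4 or 6-hour replicates 1, 3, 4 or 5 (log2 fold changes from 0.31 to 0.45). It was also lost with all 7 groups in 1 fit (adjusted p = 0.061) and with scaling by library size only (0.23, adjusted p = 0.296).

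Col23a1, a transmembrane collagen, was lower at all 6 durations on few reads. Its counts were 19, 22, 18, 24 and 39 in the controls, 3, 13, 13, 2 and 9 after 6 hours, 8, 2, 7, 6 and 1 after 1 day and 2, 6, 2, 7 and 6 after 5 days. After 1 and 5 days Col23a1 met the count filter through the controls alone, which favoured a call as lower. In CPM every cold-exposed mouse lay below every control, and the log2 fold change of Col23a1 ran from -1.37 (SE 0.38, adjusted p = 0.00805) after 6 hours to -2.24 (SE 0.37, adjusted p = 0.000131) after 5 days. Col13a1, another transmembrane collagen, went the other way early, with a log2 fold change of 0.97 (SE 0.18, adjusted p = 0.000491) after 1 day and no overlap with the controls. Its rise after 6 hours (0.60, SE 0.22, adjusted p = 0.0362) was lost without any one of room temperature replicates 1, 2, 3 or 5 or 6-hour replicates 4 or 5 (0.47 to 0.60). After 5 days Col13a1 was lower than after 6 hours by a log2 fold change of -1.10 (SE 0.25, adjusted p = 0.0019). Col25a1, with 156 counts in all, was called only over the whole time course (adjusted p = 0.0318), and 8 of the fits that left out 1 mouse lost that call.

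Types XV and XVIII, whose C-terminal fragments restin and endostatin are known as inhibitors of angiogenesis, passed the test as higher after 3 and 4 days. After 2 and 5 days their log2 fold changes were 0.29 and 0.30 for Col15a1 and 0.42 and 0.66 for Col18a1, and did not pass. Col15a1 stood at 21.5, 18.1, 14.0, 15.8 and 14.2 CPM in the controls, at 44.0, 19.5, 33.6, 27.0 and 34.0 CPM after 3 days and at 21.4, 50.3, 41.1, 17.3 and 24.2 CPM after 4 days. The log2 fold change of Col15a1 was 0.93 (SE 0.19, adjusted p = 0.00118) after 3 days and 0.89 (SE 0.25, adjusted p = 0.00936) after 4 days. It was lower after 1 day (-0.52, SE 0.17, adjusted p = 0.0262), a call lost without any one of room temperature replicates 1 or 2 or 1-day replicates 3 or 4 (-0.49 to -0.42), with DESeq2 (adjusted p = 0.0505) and with all 7 groups in 1 fit (adjusted p = 0.171). Col18a1 stood at 7.55, 4.67, 10.3, 5.44 and 3.64 CPM in the controls and at 19.2, 8.23, 18.8, 16.2 and 14.4 CPM after 3 days, so 4 of 5 mice lay above all controls (log2 fold change 1.31, SE 0.27, adjusted p = 0.0013), and it was higher by 0.89 (SE 0.26, adjusted p = 0.0123) after 4 days.

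The 3 widely expressed chains of type VI collagen, which assemble together, differed in their calls. Col6a1 stood at 14.7, 13.2, 14.8, 10.7 and 13.5 CPM in the controls and at 39.1, 13.2, 34.1, 24.3 and 19.3 CPM after 3 days (log2 fold change 0.97, SE 0.23, adjusted p = 0.00399), and was higher by 0.71 after 4 days (SE 0.16) and after 5 days (SE 0.22). The call after 5 days was lost without room temperature replicate 4 (0.63, adjusted p = 0.0509) or 5-day replicate 5 (0.49, adjusted p = 0.0591), and with scaling by library size only (0.49, adjusted p = 0.108). Col6a2 (-0.49, SE 0.15, adjusted p = 0.0183) and Col6a3 (-0.64, SE 0.15, adjusted p = 0.00294) were lower after 1 day, and neither was called at another duration. For both, all 5 mice after 1 day lay below all controls, at 11.7 to 15.8 CPM against 16.4 to 26.0 CPM for Col6a2 and at 32.5 to 58.0 CPM against 59.3 to 93.3 CPM for Col6a3. The Col6a2 call was lost without room temperature replicate 3 (-0.38, adjusted p = 0.0589), and with all 7 groups in 1 fit neither passed (adjusted p = 0.0675 for Col6a2 and 0.0533 for Col6a3). Col6a6, a chain of narrower expression, held 12, 19, 12, 11 and 15 counts in the controls and 3, 1, 3, 0 and 7 counts after 4 days (log2 fold change -2.33, SE 0.50, adjusted p = 0.00156), and passed the count filter only after 6 hours and 4 days. After 4 days it met the filter through the controls alone, which favoured a call in this direction. The fall is therefore not shown to be particular to 4 days.

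Col8a1, a short-chain network collagen of vessel walls, was lower after 6 hours, at 3.68, 9.50, 4.71, 8.51 and 4.27 CPM against 16.3, 9.15, 8.95, 7.92 and 9.46 CPM in the controls (log2 fold change -0.77, SE 0.27, adjusted p = 0.0282). The call was lost without room temperature replicate 1 (-0.55) or any one of 6-hour replicates 1, 3 or 5 (-0.68 to -0.64). Without room temperature replicate 1, Col8a1 was instead called higher after 1 day (0.45), 2 days (0.58) and 4 days (0.43). Col12a1 and Col14a1, which decorate the surface of fibrils, and Col16a1 were not called at any duration tested.

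**Figure D4:**
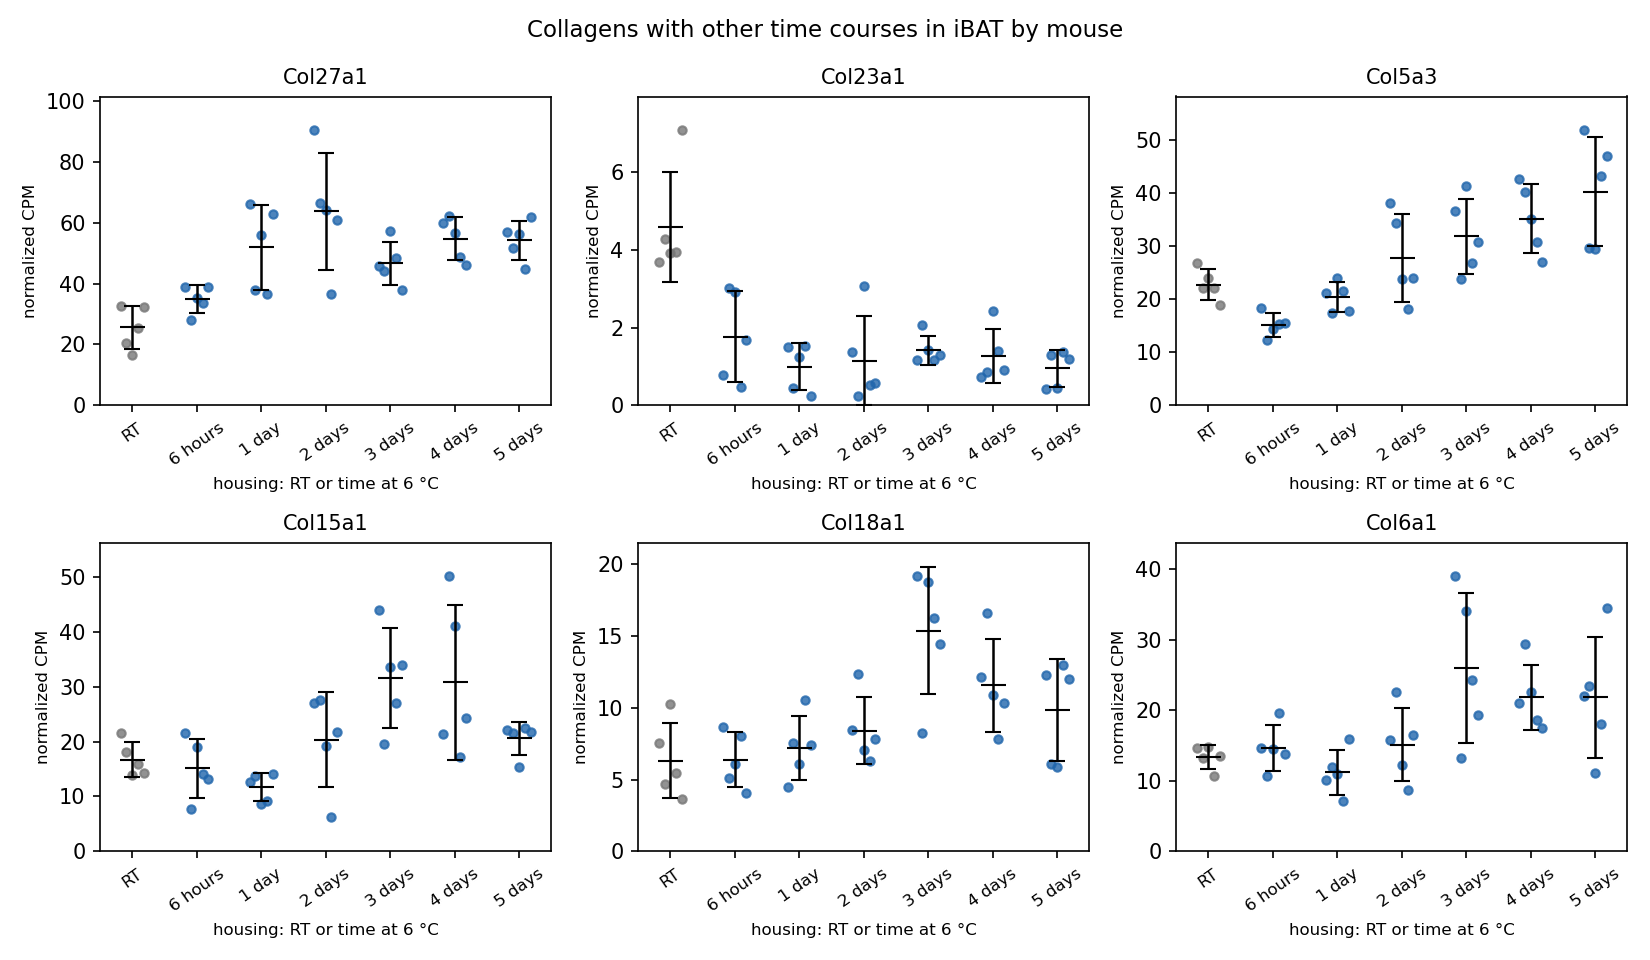
TMM-normalized CPM (y axis, from 0) of Col27a1, Col23a1, Col5a3, Col15a1, Col18a1 and Col6a1 in every mouse at room temperature (RT, grey) and after each time at 6 °C (blue), with the mean and SD of 5 mice as black bars. Col27a1 lies above all controls and Col23a1 below all controls in every mouse from 1 day on, and Col18a1 and Col6a1 have their highest means after 3 days.

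Counted over the family, 4 of the 21 collagens tested after 6 hours were higher and 4 lower, where 21.5% of all genes tested were higher and 21.0% lower. After 1 day 4 of 21 were higher and 9 lower (all genes 18.9% and 17.8%), and after 2 days 3 of 20 were higher and 1 lower (16.4% and 14.7%). After 3 days 8 of 21 were higher and 1 lower (18.3% and 15.5%), after 4 days 7 of 23 and 3 (19.4% and 18.6%), and after 5 days 5 of 21 and 1 (20.2% and 18.6%). Between 6 hours and 5 days 4 of 19 were higher and 3 lower (19.0% and 16.9%). The share of collagens higher lay near that of all genes after 6 hours and 1, 2 and 5 days, as did the share lower after 6 hours and both shares between 6 hours and 5 days. The median log2 fold change of the collagens tested was -0.49 after 1 day and 0.45 after 3 days, where the median of all genes was -0.02 and -0.01. By class, the median after 1 day was -0.72 for 7 fibrillar genes, 0.18 for 5 basement membrane genes and -0.49 for 9 others, and after 3 days it was 0.50, 0.99 and 0.21. As a share of all collagen CPM, which counts transcript ends and not protein, the basement membrane class took 17.2% to 28.6% in the controls and 50.1% to 60.3% after 1 day, without overlap, and 27.3% to 41.0% after 5 days. The fibrillar class took 54.8% to 68.7% in the controls, 28.9% to 39.5% after 1 day and 47.2% to 62.0% after 5 days. Shares of one total are tied, so a rise of one class lowers the others. Over the whole time course 19 of 24 collagens differed between durations, including all 7 fibrillar genes tested, where 60.4% of all 12077 genes did. The Col6a3 call among them was lost without any one of 1-day replicates 2 or 3 or 3-day replicates 1 or 3 (adjusted p from 0.0519 to 0.0779). Scaling by library size only lowered the median log2 fold change of all genes against room temperature, from -0.02 to -0.25 after 5 days. It moved the split of all calls after 6 hours from 50.6% to 28.3% higher. Under that scaling 2 collagens rose and 7 fell after 6 hours (all genes 12.7% and 32.1%), so the share that fell lay at the background, and 4 rose and 13 fell after 1 day (10.7% and 30.2%).

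Genes that modify and fold procollagen were counted from a list of 20. Of the 15 tested after 6 hours, 5 rose and 3 fell (all genes 21.5% and 21.0%), and of the 16 tested after 3 days, 8 rose and 2 fell (18.3% and 15.5%). P4ha1, a prolyl hydroxylase subunit, rose most after 6 hours (log2 fold change 2.27, SE 0.20, adjusted p = 9.96e-08), from 8.36 ± 3.06 to 40.7 ± 8.91 CPM (SD, n = 5). Serpinh1, the collagen chaperone HSP47, had a log2 fold change of 1.62 (SE 0.14) after 2 days, and P3h4, of the prolyl 3-hydroxylation complex, one of -1.55 (SE 0.26) after 5 days. P4ha2 was higher by 1.15 (SE 0.30) after 6 hours.

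Of 20 genes of collagen processing and crosslinking, 1 of 13 tested was higher after 6 hours and none lower, and 6 of 15 were higher and none lower after 3 days, against the same shares of all genes. Loxl1 and Loxl2, which crosslink matrix, had log2 fold changes of 2.21 (SE 0.26) after 1 day and 1.25 (SE 0.24) after 3 days, and Pcolce, which speeds the removal of the C-propeptide, 1.42 (SE 0.17) after 3 days. Lum, a small proteoglycan of fibrils, fell by 1.31 (SE 0.21) after 1 day. Of 15 basement membrane partners of type IV collagen, 4 rose and 5 fell after 6 hours (all genes 21.5% and 21.0%), and 2 rose and 4 fell after 1 day (18.9% and 17.8%). Lamb1, a laminin chain, was higher by 1.16 (SE 0.10) after 6 hours and lower after 3 days (-0.41, SE 0.11) and 5 days (-0.38, SE 0.11), while Pxdn, the peroxidase that crosslinks type IV collagen, had a log2 fold change of -1.36 (SE 0.18) after 6 hours. The laminin chains Lama4 (-0.86, after 1 day) and Lamb2 (-0.88, after 5 days) were lower.

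Of 20 genes of collagen turnover, 4 of 13 tested rose and 3 fell after 6 hours, and 5 of 14 rose and 2 fell after 3 days. All genes gave 21.5% and 21.0% after 6 hours and 18.3% and 15.5% after 3 days, near the shares of this list that fell. The protease inhibitors Timp4 (-2.03, SE 0.21) and Timp3 (-1.26, SE 0.13) were lower after 5 days but higher after 6 hours (0.40, SE 0.10, and 0.27, SE 0.10), and the proteases Mmp12 (2.69, SE 0.60, after 3 days) and Mmp3 (1.21, SE 0.34, after 1 day) were higher. Of 10 collagen receptors, 5 were tested after 6 hours, with Adgrg1 (0.93) and Itgb1 (0.52) higher and Itga1 (-0.85) and Ddr1 (-0.82) lower (all genes 21.5% and 21.0%). Of 20 TGF-beta and profibrotic signals, 5 of 18 tested rose and 5 fell after 6 hours, and 7 rose and 5 fell after 1 day (all genes 21.5% and 21.0%, then 18.9% and 17.8%). Smad3, a transducer of TGF-beta, had a log2 fold change of 2.65 (SE 0.20) after 1 day, Ccn2 2.34 (SE 0.32) and Pdgfb 1.58 (SE 0.17) after 6 hours, and Ltbp2 -1.90 (SE 0.15) after 6 hours. Among those lower after 1 day were Tgfbr2 (-1.21), Tgfb2 (-0.86), Tgfbr1 (-0.81) and Tgfbr3 (-0.42), and Smad7 (1.29) and Skil (0.85) were among those higher.

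Markers of cell types that make or adjoin collagen moved unevenly with these genes. The summed level of 10 endothelial markers was 373 to 458 CPM in controls, 597 to 722 CPM after 6 hours, 681 to 800.2 CPM after 1 day and 346 to 522 CPM after 5 days. Of 10 tested after 6 hours, 4 were higher and 2 lower (all genes 21.5% and 21.0%). After 1 day 6 of 9 were higher (all genes 18.9%), among them Eng (1.83) and Kdr (1.24). Pecam1 was higher by 1.08 after 6 hours and Emcn by 1.05 after 2 days. The 2 lower after 6 hours were Tie1 (-0.61) and Tek (-0.42). Both were also lower after 5 days (Tie1 -1.02, Tek -0.88), when Eng was still higher (1.09). The 12 adipose stromal cell markers summed to 348 to 428 CPM in controls, 341 to 360.2 CPM after 1 day and 350.0 to 471 CPM after 3 days. Of 10 tested after 1 day, Cxcl14 (1.75) and Ly6a were higher and Dcn and Pi16 (-1.09) lower (all genes 18.9% and 17.8%). Ly6a was higher by 1.495 after 3 days, Pdgfrb was lower by a log2 fold change of -0.75 after 5 days, and Pdgfra was not called at any duration. The 10 macrophage markers summed to 82.6 to 189.6 CPM in controls and 160.5 to 603 CPM after 3 days. At 3 days 6 of 10 were higher (all genes 18.3%), among them Lgals3 (4.41), Gpnmb (3.67, but -1.02 after 6 hours), Cd68 (2.91) and Lyz2 (1.38).

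Vascular smooth muscle and pericyte markers summed to 397 to 445 CPM in controls and 462 to 539.8 CPM after 6 hours. At 6 hours 4 of 10 were higher (Mylk 2.17) and 2 lower (all genes 21.5% and 21.0%). Tagln was higher by 1.43 after 1 day, and Mcam (-1.22, after 4 days) and Myh11 (-1.03, after 5 days) were lower. Schwann cell markers summed to 181 to 255 CPM in controls and 280.2 to 472 CPM after 3 days. At 3 days S100b was higher (0.88) and Mbp lower (-0.78) of 7 tested (all genes 18.3% and 15.5%), and Pmp22 was higher by 0.86 after 6 hours. Markers of skeletal muscle, a tissue that lies beside the pad, ranged from 2.32 to 1305 CPM over all mice. After 5 days 6 of 10 were lower (all genes 18.6%), among them Myh2 (-2.50), Acta1 (-1.36) and Tnnt3 (-1.32). Pvalb was lower by a log2 fold change of -1.81 after 3 days. Brown adipocyte markers were abundant in every mouse (15431 to 32528 CPM summed). After 1 day 4 of 10 were higher and 3 lower (all genes 18.9% and 17.8%), among them Ucp1 (2.03) and Adipoq (-1.43). Lpl was higher by 1.32 after 6 hours and Elovl3 by 6.55 after 5 days. The part of these cell types in the collagen differences was not tested.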

How the data were processed

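The authors made libraries with the QuantSeq 3′ FWD kit, aligned reads with STAR 2.6.1d to GRCm38 and counted them per gene with HTSeq 0.11.2. The deposited table holds these raw counts, without normalization, for 35 mice. Whether counting used strand was not given in the sources used here, so counts of Col4a2, Col5a1, Col6a6 and Col15a1, which overlap annotated genes on the opposite strand, are uncertain to that extent. Col3a1 overlaps an annotated gene on its own strand, which counting by strand would not resolve. Col4a1 and Col4a2 overlap at their 5′ starts, away from the ends this kit reads. Counts were fitted with edgeR 4.0.16 in R 4.3.3 (TMM, filterByExpr, quasi-likelihood test), each duration against room temperature in a fit of its own. DESeq2 1.42.0 was an alternative. Ratios used a pseudocount of 0.5 and exact permutation tests, and correlations took log2 CPM (prior count 2), in Python 3.11.15 (numpy 2.4.6, scipy 1.17.1). Depth was 3846016 to 6047247 counts per mouse. Scripts were tested on simulated data. Named genes are the 4 most abundant of each class tested at all 6 durations, the largest call in each direction at each duration, and up to 4 genes per list with a mean of at least 20 counts. The members and lists were chosen with earlier results of these data known, and members and list genes outside that rule were named after their values were seen. Alternatives changed the scaling, count filter, tool, samples fitted, replicate block, pseudocount, prior count and the mice left out.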

Additional observations from a re-analysis of the deposited data

Results flagged for a closer look

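Single mice stood apart for 6 of the 98 combinations of a named collagen and a group (Dixon's test), where chance gives about 1 in 20, or 4.9. Room temperature replicate 1 was high for 3 genes: Col1a2 (345 CPM, the next mouse 204), Col1a1 (223 CPM, the next 100.2) and Col8a1 (16.3 CPM, the next 9.46). Room temperature replicate 5 was high for Col23a1 (7.10 CPM, the next 4.28). 4-day replicate 1 was low for Col4a2 (108.9 CPM, the next 139.7), and 5-day replicate 3 was low for Col15a1 (15.3 CPM, the next 21.5).

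Effects of cold differed between durations by a direct test for 7 of 19 collagens between 6 hours and 5 days: Col5a3 (log2 fold change 1.43), Col5a2 (0.79), Col27a1 (0.65), Col6a1 (0.60), Col13a1 (-1.10), Col4a1 (-0.61) and Col4a2 (-0.58). These are 4 higher and 3 lower, near the shares of all genes tested (19.0% and 16.9%). The Col6a1 call was lost without any one of 6-hour replicates 1, 2, 3 or 5 or 5-day replicates 1, 2 or 5 (0.37 to 0.60). Between 1 day and 3 days, a comparison chosen after values had been seen, 15 of 20 differed. Of these, 12 were higher and 3 lower, where 6.97% of all genes tested were higher and 5.11% lower. Higher after 3 days were Col5a2 (1.48), Col15a1 (1.46), Col5a1 (1.39), Col3a1 (1.34), Col6a1 (1.24), Col1a1 (1.21), Col1a2 (1.16), Col18a1 (1.13), Col14a1 (1.05), Col6a3 (0.98), Col6a2 (0.93) and Col5a3 (0.66), and lower were Col13a1 (-0.89), Col4a2 (-0.65) and Col4a1 (-0.40).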

How the results depend on the processing

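The calls of Col4a1, Col4a2, Col27a1 from 1 day on and Col23a1 against room temperature held under every alternative. Of 54 called values of named collagens, 54 held with RLE size factors, 52 with DESeq2's Wald test, 50 with library size only, 48 with all 7 groups in 1 fit and 53 with the replicate block. Counts that moved, with the main value first, were as follows. With library size only, 6 hours gave 2 higher (4) and 7 lower (4), and the lower count was 2 after 2 days (1) and 6 after 5 days (1). With no filter on low counts the lower count was 3, 4, 6 and 6 after 2, 3, 4 and 5 days and 6 between 6 hours and 5 days, and the higher count was 13 after 3 days, 8 after 5 days and 8 between 6 hours and 5 days. DESeq2 gave 2, 4, 5 and 3 lower after 2, 3, 4 and 5 days and 5 lower between 6 hours and 5 days, and all 7 groups in 1 fit gave 2, 3 and 4 lower after 2, 3 and 5 days. With type IV only, 2 rather than 4 basement membrane genes were higher after 3 and 4 days. Replicate numbers did not pair the mice (correlations of same-numbered mice from -0.246 to 0.257), and the replicate block gave 2 lower after 2 and 5 days.

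Leaving out 1 mouse gave 2 to 4 higher and 2 to 5 lower after 6 hours, 1 to 3 lower after 2 days, 1 to 4 lower after 3 days, 4 to 8 higher and 1 to 6 lower after 5 days, and 3 to 8 higher between 6 hours and 5 days (8 without 5-day replicate 3 both times). The lowest count of genes higher after 6 hours came without room temperature replicates 2 or 3 or 6-hour replicates 4 or 5, that of genes lower without room temperature replicate 1 or 6-hour replicate 5, and the highest lower counts without 2-day replicates 1 or 4, 3-day replicate 3 and 5-day replicate 5. It gave 1 to 3 durations for Col1a1 to Col1a2, 2 to 5 for Col4a1 to Col1a1, r of 0.22 to 0.49 for Col1a1 with Col4a1 and -0.15 to 0.087 for Col4a1 with Pecam1. For Col1a1 with Col4a1, r was 0.59 with library size only and 0.71 in the 20 mice after 2 to 5 days.

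Values that changed sign were small and passed no test before or after. With library size only they were Col18a1 after 1 day (-0.029), Col6a3 (-0.12) and Col6a1 (-0.034) after 2 days, Col6a1 after 6 hours (-0.084) and Col8a1 between 1 and 3 days (0.067). Col6a3 after 2 days was -0.079 with the replicate block, Col3a1 after 5 days was 0.019 without a filter, and Col18a1 after 6 hours was 0.0029 (RLE), 0.0040 (no filter), 0.029 (replicate block), 0.024 (DESeq2) and 0.015 (1 fit). Leaving out 1 mouse, signs changed for Col15a1 (-0.31 to 0.00045), Col18a1 (-0.14 to 0.23), Col6a1 (-0.0044 to 0.21) and Col6a2 (-0.14 to 0.025) after 6 hours, Col1a1 (-0.54 to 0.034), Col6a1 (-0.0068 to 0.32) and Col6a3 (-0.29 to 0.23) after 2 days, Col1a2 (-0.32 to 0.063) and Col6a3 (-0.24 to 0.057) after 4 days, Col1a1 (-0.24 to 0.30), Col3a1 (-0.25 to 0.16) and Col8a1 (-0.26 to 0.044) after 5 days, Col1a2 (-0.13 to 0.25) and Col6a3 (-0.19 to 0.021) between 6 hours and 5 days, Col8a1 between 1 and 3 days (-0.088 to 0.036) and the ratio of Col4a1 to Col4a2 after 4 days (-0.065 to 0.060). The cause of these changes was not tested. Genes near 1 CPM rest on few reads, which limits Col23a1, Col6a6 and Col4a5.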
